A study of Bos taurus with 57 samples.

Results

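The transcriptomes of 2 endocrine tissues of young bulls were compared, the anterior pituitary (19 libraries) and the arcuate nucleus of the hypothalamus (20 libraries). These are all libraries that carry either tissue label, 39 of the 57 in the series. All came from Holstein Friesian male calves on 1 of 2 planes of nutrition, high (1.08 kg of growth per day in the labels) or low (0.5 kg per day), and were taken at slaughter at 126 days of age. The anterior pituitary was represented by 9 high plane and 10 low plane libraries, and the arcuate nucleus by 10 of each. Each library was a single-end mRNA library of bulk tissue, so that fewer cells of a type and less RNA per cell cannot be told apart. The same 20 calves gave both tissues, but the labels do not state which libraries share a calf, and the tests treat libraries as independent.

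The anterior pituitary is a gland in which a few kinds of endocrine cell make and release protein hormones in large amount, among them growth hormone, prolactin and the gonadotropins LH and FSH. The arcuate nucleus is a cluster of neurons and glia at the base of the hypothalamus. It holds the neurons that sense metabolic hormones and control feeding, and cells there act on the neurons that release GnRH, the peptide that drives LH and FSH secretion. The deposited counts list genes by Ensembl identifier only, and 0 of 24616 identifiers could be paired with a symbol. Genes are therefore described by their abundance rank in a tissue, and the hormones and neuropeptides that these tissues are known for were not looked up. For the same reason the tissue labels were not checked against marker genes.

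Each library resembled the libraries of its own tissue more than those of the other. The median Pearson correlation of log2 CPM (the reads on a gene, scaled to a common library total of 1000000 reads) with libraries of the same tissue was higher than with the other tissue in 39 of 39 libraries. Total counts did not separate the tissues, at 16346430 ± 5094697 reads in the anterior pituitary (SD, n = 19) and 16319326 ± 7160418 in the arcuate nucleus (SD, n = 20). The difference had p = 0.991 in a 2-sided permutation test. The arcuate nucleus held the shallowest library, C22, with 898979 reads, and every other library had at least 6895844.

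A set of 7 libraries stood apart within the tissues. Their median correlation with their own tissue was between 0.678 and 0.8045, and that of the other 32 was at least 0.922. They were 5 anterior pituitary libraries (A57, A51 and A18 on the high plane, A10 and A47 on the low plane) and 2 arcuate nucleus libraries (C6 and C33, both on the low plane). Within the anterior pituitary, 57.7% of the 14930 genes tested did not overlap between these 5 and the other 14 libraries, and within the arcuate nucleus 53.7% did not overlap between the 2 and the other 18. The 7 were set apart by their correlation over the same 14930 genes, so these shares follow in part from that choice and carry no test. Across those genes, the shift of the 5 from the other pituitary libraries and the shift of the 2 from the other arcuate libraries had a Pearson correlation of 0.932, a description over genes that share libraries and scaling. The labels give no batch or date for them, and what sets them apart was not tested. The main results are therefore also given without these 7, a choice made after the data were seen.

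The anterior pituitary and the arcuate nucleus differed at most of the genes measured. Of 14930 genes tested, 5063 (33.9%) were higher in the anterior pituitary and 4984 (33.4%) were higher in the arcuate nucleus at a false discovery rate (FDR) below 0.05, in edgeR's quasi-likelihood test with diet as a covariate. Counts of genes were thus similar on both sides. They were less similar for larger differences. A gene is called strongly higher here where it also differed by at least 1 on the log2 scale, which is 2-fold. By that measure 2083 genes (14%) were strongly higher in the anterior pituitary and 3126 (20.9%) in the arcuate nucleus. At a log2 difference of 3 or more the counts were 328 and 935, and at 5 or more they were 109 and 369. The median log2 difference was 1.53 among the genes strongly higher in the anterior pituitary, and -2.06 among those strongly higher in the arcuate nucleus (differences are anterior pituitary minus arcuate nucleus throughout).

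A stricter question is whether a difference is credibly larger than 2-fold, which was tested with a null of 1 on the log2 scale (edgeR's glmTreat). It called 1286 genes in the anterior pituitary and 2385 in the arcuate nucleus. Without the 7 libraries that stood apart, 6252 genes were higher in the anterior pituitary and 6211 in the arcuate nucleus of 15113 tested, and 2025 and 3136 were strongly higher. Of the 2083 genes strongly higher in the anterior pituitary, 1739 (83.5%) were also strongly higher without the 7, as were 2890 (92.45%) of the 3126 of the arcuate nucleus. The genes strongly higher in the 32 libraries also pointed the same way in the 7 left out. Among those tested in both, 1922 of 1968 pituitary genes (97.7%) and 2954 of 3027 arcuate genes (97.6%) had the same sign of difference between the 5 pituitary and the 2 arcuate libraries. These genes were picked for differences of at least 2-fold. The same share over all genes tested is not given here, so these figures have no background to be read against.

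The number of genes on each side depended on how libraries were scaled. CPM are shares, so a gene that takes a large share of the reads of one tissue lowers the CPM of every other gene there. TMM factors, used above, put the median log2 difference of all genes at 0.02. Library totals without such factors put it at -0.16, and then 4015 genes were higher in the anterior pituitary and 5801 in the arcuate nucleus, so that the pituitary side held 40.9% of the calls instead of 50.4%. Library totals without the 10 most counted genes of each tissue put it at 0.21, with 6237 and 4153 genes, a pituitary share of 60.03%. Under that last scaling the order of the strongly higher genes turned, to 2798 in the anterior pituitary and 2691 in the arcuate nucleus. Taken relative to the median of all genes, the counts of strongly higher genes were 2036 and 3176 with TMM factors, 2028 and 3176 with plain totals and 2033 and 3112 without the most counted genes. A change of scaling moves all genes by about the same amount, so these centred counts were bound to be alike. They do not show which scaling is right. At a log2 difference of 5 or more the arcuate nucleus held more genes under each of these scalings, 338 to 406 against 91 to 119.

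**Figure D1:**
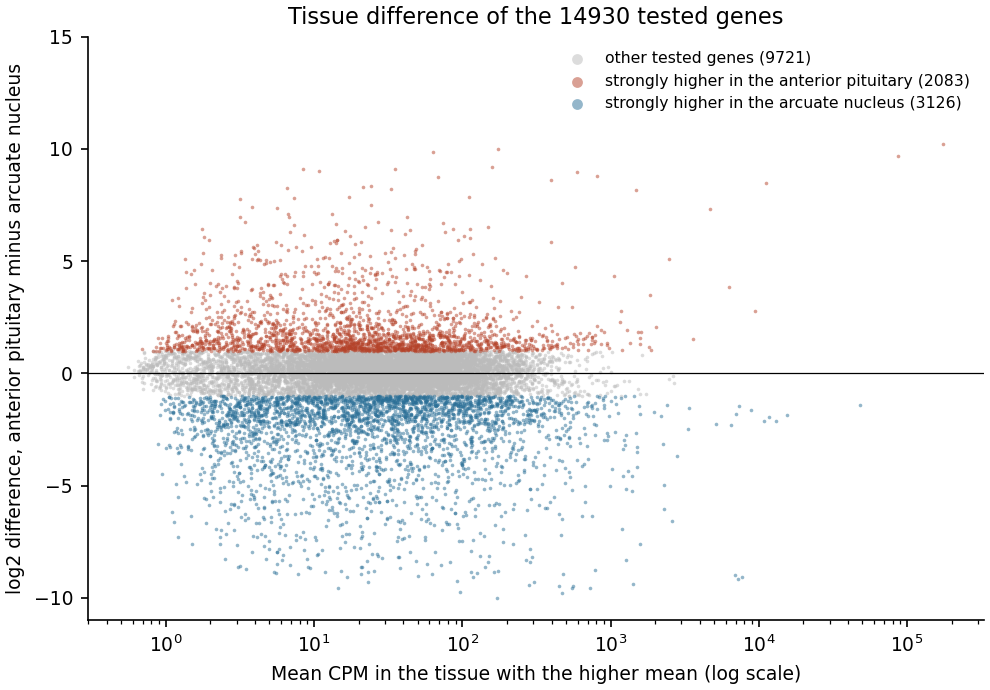
Each point is 1 of the 14930 genes tested, with its mean CPM in the tissue with the higher mean on a log axis and its fitted log2 difference (anterior pituitary minus arcuate nucleus) on the other. Red points are the 2083 genes strongly higher in the anterior pituitary and blue points the 3126 strongly higher in the arcuate nucleus; below a log2 difference of -5 there are 369 called genes, and above 5 there are 109.

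For 1627 of the 14930 genes (10.9%), the lowest library of one tissue lay above the highest library of the other in CPM, and 452 of these were higher in the anterior pituitary and 1175 in the arcuate nucleus. These counts moved with the scaling as well. With TMM factors they were 601 and 1183, and with totals without the most counted genes 964 and 982. Without the 7 libraries that stood apart, CPM separated 1155 and 3254 of the same 14930 genes, TMM factors 2156 and 2701, and totals without the most counted genes 3024 and 2228, so that the last scaling turned the order.

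Few genes were found in one tissue alone. At least 1 read was present in some library of both tissues for 20163 genes, in the anterior pituitary alone for 574 genes and in the arcuate nucleus alone for 1180 genes. In all 39 libraries 12773 genes had a read. There was no gene with a read in every anterior pituitary library and in no arcuate nucleus library, and there were 6 genes with the reverse. Genes well counted in one tissue and scarce in the other were more numerous on the arcuate side under each scaling tried. With a mean of at least 10 CPM in one tissue and below 0.1 CPM in the other there were 7 pituitary and 33 arcuate genes, and with the lower limit at 1 CPM there were 63 and 235. Among the genes tested, the latter counts were 65 and 212 with TMM factors and 71 and 198 with totals without the most counted genes. In CPM without the 7 libraries they were 59 and 246, and 7 and 34 with the lower limit at 0.1 CPM.

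The strongly higher genes covered the whole range of abundance. Genes were placed in classes by their mean CPM in the tissue where that mean was higher. In the class from 10 to 100 CPM, which held 8858 genes, 1091 (12.3%) were strongly higher in the anterior pituitary and 1475 (16.65%) in the arcuate nucleus. From 100 to 1000 CPM the counts were 296 (12.8%) and 616 (26.7%) of 2307 genes. At 1000 CPM or more they were 23 (25.6%) and 51 (56.7%) of only 90 genes. With totals without the most counted genes, the order turned in the class from 10 to 100 CPM (1524 and 1230 genes) and held from 100 to 1000 CPM (395 and 541) and above (24 and 47). Without the 7 libraries that stood apart, the pituitary and arcuate counts were 1040 and 1411 from 10 to 100 CPM, 281 and 633 from 100 to 1000 CPM, and 21 and 48 above. The median level in the tissue of higher expression was similar for the 2 lists, 20.5 CPM for the pituitary genes and 25.1 CPM for the arcuate genes, and 28.1 CPM for all genes tested.

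**Figure D2:**
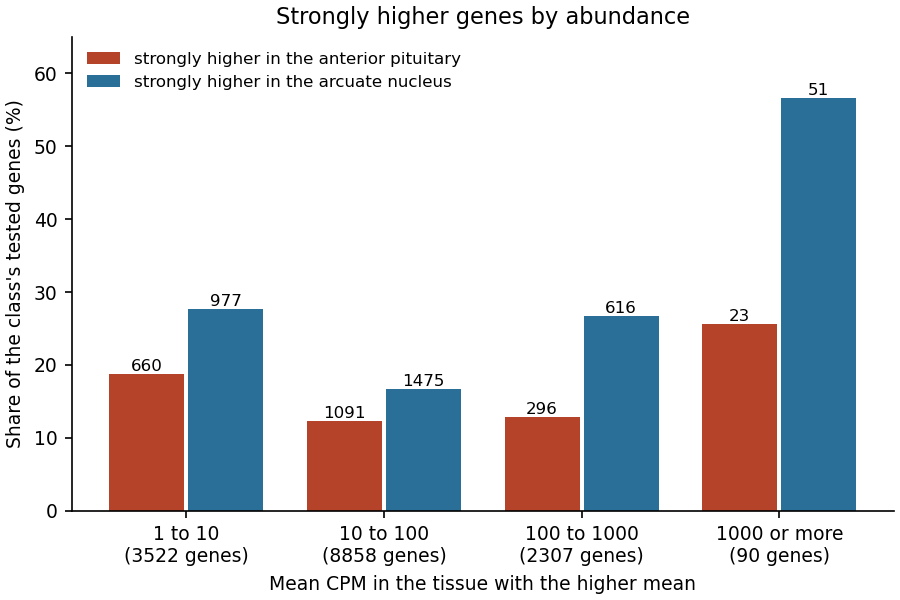
Bars start at 0 and give the share of the tested genes in each class of mean CPM that were strongly higher in the anterior pituitary (red) or in the arcuate nucleus (blue), with the number of genes above each bar; 153 genes below 1 CPM are left out. With TMM factors the arcuate bar is the taller one in each of the 4 classes (the order turns from 10 to 100 CPM with totals without the most counted genes), and the gap is widest at 1000 CPM or more, 51 genes against 23.

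In reads, the 2 lists were of nearly equal weight, but the weight was spread differently. The 2083 genes strongly higher in the anterior pituitary took a median of 44.9% of the reads of an anterior pituitary library (29.8% to 51.1%) and 5.26% of an arcuate nucleus library (4.90% to 7.73%). For the 3126 genes strongly higher in the arcuate nucleus the median was 45.05% in that tissue (36.1% to 47.9%) and 9.28% in the anterior pituitary (8.02% to 12.6%). Within the pituitary list, the 10 most counted genes alone took a median of 31.2% of the reads and the other 2073 genes took 13.5%. Within the arcuate list, the 10 most counted genes took 13.7% and the other 3116 genes 30.99%. With lists and libraries taken without the 7, the medians in their own tissue were 45.78% for the pituitary list and 43.68% for the arcuate list, of which the 10 most counted genes took 32.6% and 13.03%. These genes were chosen on the same libraries, so the shares describe the lists and carry no test.

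The anterior pituitary owed this to very few genes. Its most counted gene, ENSBTAG00000015274, took 31375 CPM in the lowest anterior pituitary library, 182222 CPM in the median one and 263632 CPM in the highest. In the arcuate nucleus it had 2.23, 79.5 and 644 CPM in the same order. No library of either tissue came near the other tissue, and the lowest pituitary library held 48.8 times the level of the highest arcuate library. The fitted log2 difference was 10.20 ± 0.60 (SE, FDR 2.92e-18). The lowest pituitary library was A47, 1 of the 7 that stood apart, and without these the difference was 10.12. It was the most counted gene of 16 of the 19 anterior pituitary libraries.

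The second most counted gene of the anterior pituitary had 3483 CPM in its lowest library there, 100013 CPM in the median one and 162049 CPM in the highest. It led the other 3 libraries. Arcuate nucleus libraries had 0, 45.1 and 425 CPM, so again the tissues did not overlap, and the log2 difference was 9.70 ± 0.68 (SE, FDR 6.17e-16), or 10.06 without the 7 libraries. This gene divided the pituitary libraries. The 5 that stood apart held 3483 to 14623 CPM and the other 14 held 72755 to 162049 CPM. The most counted gene did not divide them so, with 31375 to 263632 CPM in the 5 and 89754 to 259199 CPM in the 14.

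Below these 2 genes the levels dropped steeply. The fourth most counted pituitary gene had 4458, 8760 and 27948 CPM (lowest, median and highest library), against 0, 8.40 and 1465 CPM in the arcuate nucleus, a log2 difference of 8.49 ± 0.90 (SE, FDR 7.22e-11), or 7.95 without the 7. Its arcuate maximum came from library C8 alone, and the next highest arcuate library, C43, had 47.1 CPM. The fifth gene was counted in both tissues, with 5035 to 21200 CPM in the anterior pituitary and 867 to 3824 CPM in the arcuate nucleus, and differed by 2.77 ± 0.19 on the log2 scale (SE, FDR 4.53e-16), or 2.56 without the 7. The seventh gene was the one among the first 10 whose tissues overlapped in CPM, with 12.6 to 29243 CPM in the anterior pituitary and 1.34 to 78.3 CPM in the arcuate nucleus. All of that overlap came from the 5 pituitary libraries that stood apart, which held 12.6 to 77.6 CPM, whereas the other 14 held 1782 to 29243 CPM.

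The leading pituitary genes were present at a trace in nearly all arcuate libraries. The most counted one had 562 to 644 CPM in C24, C43 and C55, all on the low plane, and at most 315 CPM in the other 17. In the shallow library C22 it had 2 reads, and the second gene had 0 reads there. The level of the first gene divided by that of the second was 27.9 in arcuate library C37, and in the other 18 arcuate libraries with reads of both it ran from 0.793 to 2.29. In the anterior pituitary this ratio ran from 0.660 to 69.8. Its values of 20.6 to 69.8 came from A10, A51, A18 and A57, all among the libraries that stood apart. Every other pituitary library had a ratio of 0.660 to 2.785. The part of these traces in the tissue differences was not tested.

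**Figure D3:**
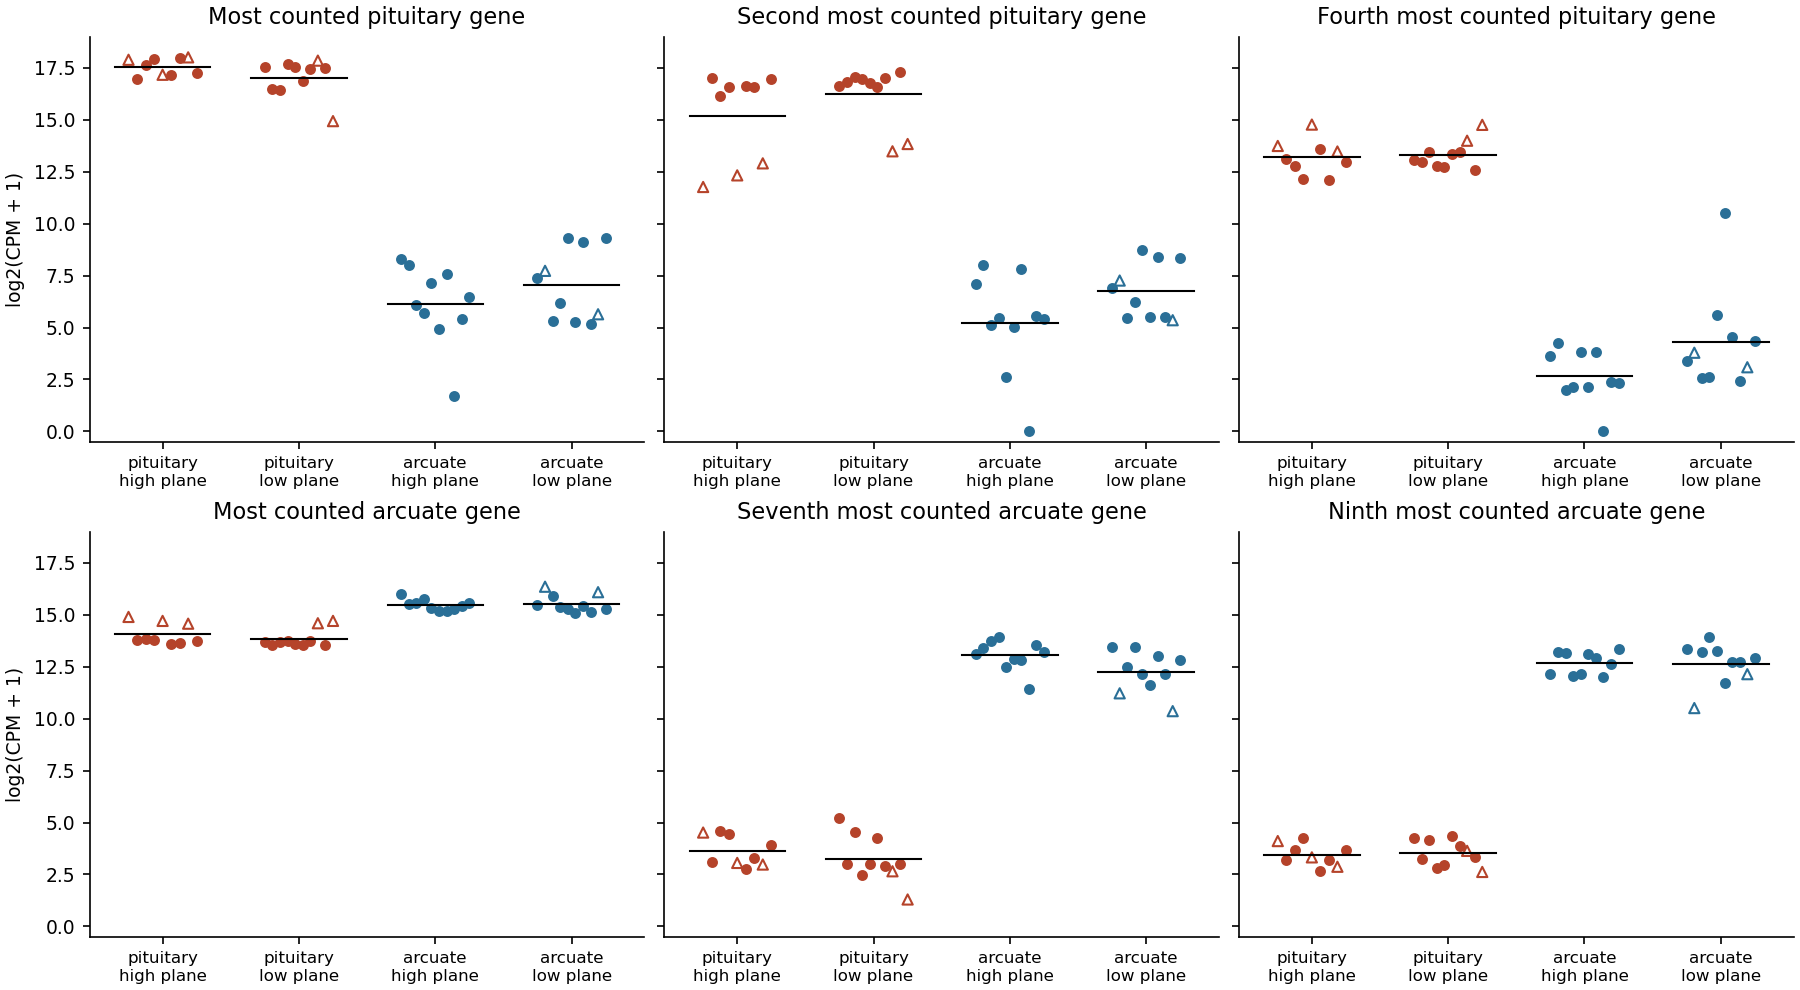
Levels of 6 genes as log2(CPM + 1) in each library, by tissue and plane of nutrition; bars are means, dots are libraries and open triangles are the 7 libraries that stood apart. The first, the second and the fourth most counted pituitary genes and the seventh and ninth most counted arcuate genes separate the tissues with no overlap. The most counted arcuate gene does so by a narrow margin, 30540 CPM against 34818 CPM, which does not hold with TMM factors.

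The most counted genes of the arcuate nucleus were of a different kind, in that most of them were also well counted in the anterior pituitary. The most counted one led 20 of 20 arcuate libraries with 34818, 44028 and 83752 CPM (lowest, median and highest), and was the third most counted gene of the anterior pituitary with 12018, 13692 and 30540 CPM. In CPM the tissues did not overlap. The nearest libraries were A57 and C8, with TMM factors of 0.856 and 1.205. Levels divided by these factors put A57 above C8, so with TMM factors the tissues overlapped. The log2 difference, fitted with TMM factors, was -1.39 ± 0.17 (SE, FDR 3.75e-09), or -1.57 without the 7 libraries. Those 7 held the highest values of this gene in both tissues, 24386 to 30540 CPM against 12018 to 14423 CPM in the anterior pituitary, and 69764 to 83752 CPM against 34818 to 66230 CPM in the arcuate nucleus.

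In all, 3 genes were among the 10 most counted of both tissues, at ranks 1, 2 and 4 in the arcuate nucleus and 3, 8 and 10 in the anterior pituitary. All 3 were strongly higher in the arcuate nucleus. Of the 100 most counted genes of each tissue 37 were shared (37% of each list), and of the 1000 most counted 592 (59.2% of each). Among the 20 most counted arcuate genes, 17 were strongly higher there and the other 3 were strongly higher in neither tissue. The 20 most counted pituitary genes were mixed, as 11 were strongly higher in their own tissue, 7 were strongly higher in the arcuate nucleus and 2 in neither.

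Some abundant arcuate genes were nearly absent from the anterior pituitary. The seventh most counted arcuate gene had 1316, 7426 and 15725 CPM in the arcuate nucleus and 1.45, 7.31 and 35.7 CPM in the anterior pituitary, a log2 difference of -9.07 ± 0.42 (SE, FDR 2.08e-21). The ninth had 1458, 7185 and 15591 CPM against 5.15, 9.01 and 19.4 CPM (-9.16 ± 0.30, SE, FDR 4.69e-26). The eleventh had 2637, 6529 and 14448 CPM against 3.10, 12.1 and 31.5 CPM (-8.98 ± 0.34, SE, FDR 3.93e-24). Their differences without the 7 libraries were -9.04, -9.21 and -8.91. Each of the 3 had its lowest arcuate library at least 36.9 times above its highest pituitary library. Their median levels in the arcuate nucleus were a small part of the median levels of the first 2 pituitary genes in the anterior pituitary. Levels are shares of counted reads and not per length of transcript. In the 5 pituitary libraries that stood apart, the second pituitary gene had only 3483 to 14623 CPM, on a level with these 3 genes.

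The largest fitted differences were not confined to abundant genes. They were ranked among genes with no overlap between the tissues and a mean of at least 10 CPM in the higher one, which 372 pituitary and 963 arcuate genes met. After ENSBTAG00000015274, the largest in the anterior pituitary was that of ENSBTAG00000009128, with 109, 162 and 358 CPM there and 0, 0.10 and 0.64 CPM in the arcuate nucleus. Its log2 difference was 10.01 ± 0.35 (SE, FDR 2.77e-25), or 9.57 without the 7 libraries. Over the 20 arcuate libraries it had 63 reads in all, and 5 of them had 0 reads. On the high plane its pituitary mean was 190 ± 93.3 CPM (SD, n = 9), and on the low plane it was 162 ± 48.9 CPM (SD, n = 10). The 5 pituitary libraries that stood apart, 3 on the high plane and 2 on the low plane, held 185.8 to 358.5 CPM. The other 14 held 109.1 to 178.4 CPM, so these means do not rank the planes.

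On the arcuate side the largest difference was that of ENSBTAG00000020650, with 51.5, 154 and 305 CPM in the arcuate nucleus and 0, 0.13 and 0.44 CPM in the anterior pituitary. Its log2 difference was -9.99 ± 0.35 (SE, FDR 3.51e-25; -10.02 without the 7), and 43 reads fell on it over the 19 pituitary libraries. ENSBTAG00000004574 followed, with 165, 448 and 978 CPM against 0, 0.42 and 1.79 CPM (-9.78 ± 0.40, SE, FDR 3.29e-23; -9.50 without the 7) and 150 reads over the pituitary libraries. Fitted differences of genes with so few reads in one tissue depend on the prior count of the fit and are no bounds.

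Of the 15 largest in each direction, the other 13 pituitary genes differed by 7.88 to 9.87 on the log2 scale and the other 13 arcuate genes by -9.09 to -9.72. All 26 were called without the 7 libraries as well. That was near certain, as genes with no overlap in all libraries have none in a part of them. The mean level of those pituitary genes in their own tissue ran from 10.8 to 87011 CPM, and that of the arcuate genes from 14.5 to 7250 CPM.

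A large group of well counted genes differed little. A mean of at least 100 CPM in both tissues was found for 1110 genes, and 583 of them (52.5%) had a log2 difference smaller than 0.5 in size. Still, 728 (65.6%) were called at an FDR below 0.05, against 67.3% of all genes tested. Over all genes tested the quartiles of the log2 difference were -0.77 and 0.61. The share of all genes within 0.5 is not given here, so small differences are not shown to be particular to this group. The strongly higher genes of this group numbered 119 in the anterior pituitary and 120 in the arcuate nucleus with TMM factors, and 163 and 92 with totals without the most counted genes. The 10 genes nearest to equality had fitted log2 differences between -0.01 and 0.01, which is how they were picked.

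The spread between libraries of a tissue was set largely by the 7 libraries. Over the 1110 genes, the median coefficient of variation with all libraries was 32.4% among pituitary and 28.6% among arcuate libraries. Among the 14 and 18 libraries left without the 7 it was 10.1% and 13.4%, and 10.1% and 13.1% without the shallow library C22 as well. The 7 were set aside for differing from their own tissue, 5 in one and 2 in the other, so these values do not rank the tissues.

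Reads were concentrated in fewer genes in the anterior pituitary. The single most counted gene of a library took 17.85% ± 5.96 of the reads in the anterior pituitary (SD, n = 19) and 4.83% ± 1.29 in the arcuate nucleus (SD, n = 20). The 10 most counted genes took 32.3% ± 6.01 and 14.1% ± 3.60. This difference of 18.2 percentage points had a permutation p of 2e-05, the smallest that 100000 resamples can give, and 4.4e-05 after adjustment over the 11 measures compared. Library A47 was an exception with 14.8%, inside the arcuate range of 9.36% to 23.3%. In the other 32 libraries the 10 most counted genes took 26.4% to 39.8% in the anterior pituitary and 9.36% to 18.7% in the arcuate nucleus, with no overlap. The 100 and the 1000 most counted genes gave the same order, at 41.8% against 27.6% and 62.9% against 54.5% (p = 2e-05 for each, permutation), and without the 7 at 42.64% against 26.60% and 62.36% against 53.37%. A median of 273 genes held 50% of the reads in the anterior pituitary, and 779 genes in the arcuate nucleus.

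The higher concentration in the anterior pituitary was not seen in the next 10 genes after the 2 most counted of each library. In A47 those 2 genes took only 5.91% of the reads. Among the reads left after the 2 most counted genes, the next 10 genes took 8.34% ± 1.21 in the anterior pituitary and 9.46% ± 2.57 in the arcuate nucleus. The order was turned, and the difference of -1.12 percentage points had p = 0.0917 (2-sided permutation test). Leaving out the 7 libraries gave -0.94 percentage points (p = 0.117, permutation). This measure was added after the data were seen.

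**Figure D4:**
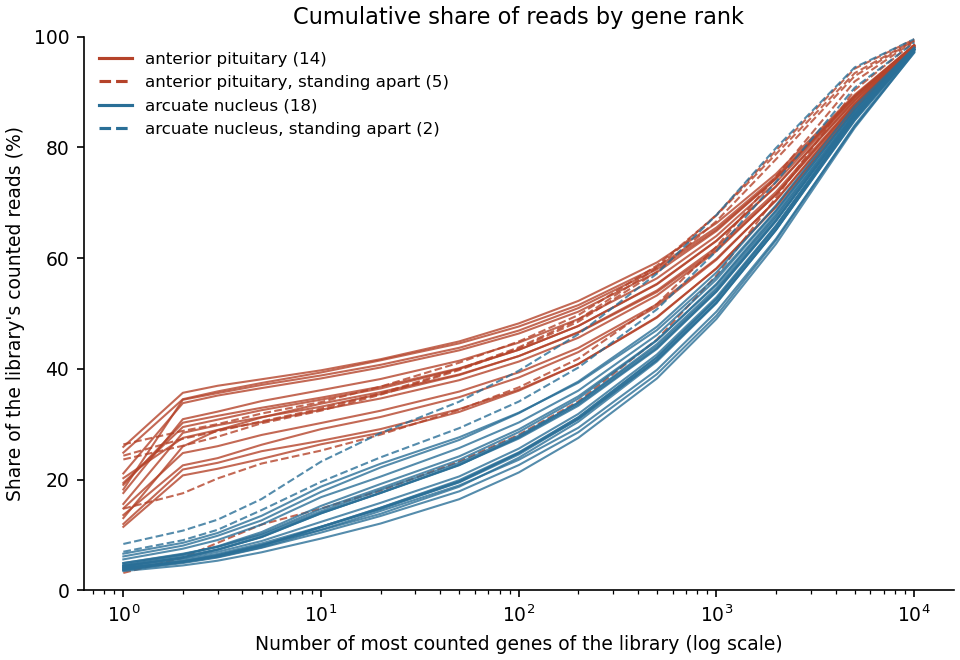
Share of a library's counted reads (percent) held by its most counted genes, by the number of genes taken on a log axis, with a line for each of the 39 libraries; dashed lines are the 7 that stood apart. Red lines (anterior pituitary) start at up to 26.4% with the first gene and blue lines (arcuate nucleus) at no more than 8.38%, and the red line among the blue is library A47.

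The arcuate nucleus held more detectable genes at a common depth. As deposited, 17259 ± 607 genes had a read in an anterior pituitary library (SD, n = 19) and 17588 ± 940 in an arcuate nucleus library (SD, n = 20), a difference that did not pass the test (-329 genes, p = 0.21, permutation). Without the shallow library C22 it was -475 genes (p = 0.029, permutation). These numbers rise with depth. Each library was therefore reduced by calculation to 898979 reads, the total of C22, and the expected number of genes with a read was then 13935 ± 594.5 and 14582 ± 610. The difference of -646 genes had p = 0.00126 (permutation), 0.00173 after adjustment. At 10 CPM or more, the anterior pituitary had 9267 ± 916 genes and the arcuate nucleus 10145 ± 835 (p = 0.00286, permutation), and without the 7 they had 9768 and 10394 genes (p = 2e-05, permutation).

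Most of the spread in this count came from the 7 libraries. At the common depth the 5 anterior pituitary libraries had 12473 to 13561 genes and the 2 arcuate libraries 12350 and 13653, below every one of the other 32. Among these 7 alone the arcuate nucleus did not have more genes, with means of 13043 genes in the 5 pituitary and 13001 in the 2 arcuate libraries, untested. Without them the ranges were 14033 to 14533 genes in the anterior pituitary and 14442 to 15340 in the arcuate nucleus, which meet only at their edges, and the difference was -503 genes (p = 2e-05, permutation). On the high plane the difference was -929 genes (p = 4.33e-05, exact permutation), or -451 genes without the 7 (p = 0.0005, exact permutation). On the low plane it was -376 genes and did not pass the test (p = 0.224, permutation), and without the 7 it was -548 genes (p = 0.000155, exact permutation).

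Part of the difference went with the most counted genes themselves. The 10 most counted genes of either tissue, 17 genes in all, were taken out and libraries reduced to 799154 of the remaining reads. The expected number of genes was then 14290 ± 573 and 14611 ± 563, a difference of -320 genes that did not pass the test (p = 0.0873, permutation). Leaving out the 7 libraries gave -161 genes (p = 0.00134, permutation), against -503 with the 17 genes kept. By plane, with the 17 genes and the 7 libraries out, it was -97.3 genes on the high plane (p = 0.340, exact permutation). On the low plane it was then -212 genes (p = 0.000311, exact permutation). With all libraries the high plane gave -564 genes (p = 0.0295, exact permutation) and the low plane -85.8 (p = 0.801, permutation).

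**Figure D5:**
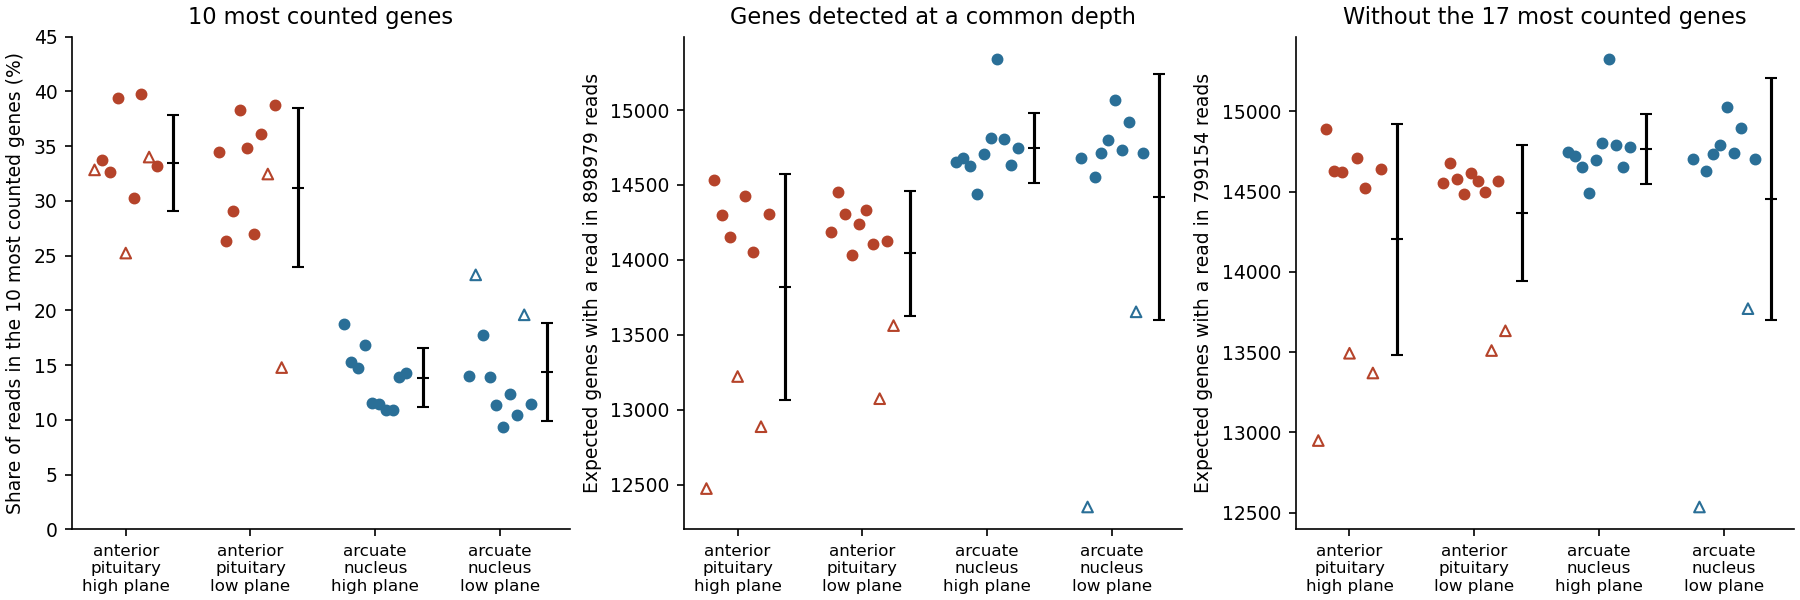
Values of each library by tissue and plane of nutrition, with the mean and SD beside each group: the share of reads in the 10 most counted genes (percent), the expected number of genes with a read in 898979 reads, and the same in 799154 reads after the 17 most counted genes were taken out. Open triangles are the 7 libraries that stood apart; they lie lowest in both counts of genes, and the other 32 libraries overlap between the tissues once the 17 genes are out (14485 to 14890 against 14494 to 15326). The axes of the gene counts do not start at 0.

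The tissue difference was also fitted on each plane of nutrition alone, with libraries that the other fit did not use. Of 14900 genes tested on the high plane, 2384 were strongly higher in the anterior pituitary and 3288 in the arcuate nucleus. Of 14628 tested on the low plane, 1838 and 2689 were. Both planes shared 1363 of the pituitary genes (57.2% of the high plane list and 74.2% of the low plane list) and 2336 of the arcuate genes (71.05% and 86.87%). No gene strongly higher in one tissue on the high plane was strongly higher in the other tissue on the low plane. Such a gene would need called differences of at least 2-fold in opposite directions, so this outcome says little. In the 32 other libraries the shared genes were 1667 for the anterior pituitary (81.8% and 82.5%) and 2718 for the arcuate nucleus (84.7% and 91.5%).

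Whether the tissue difference changed with diet was tested by an interaction of tissue and diet. It called 8 of 14930 genes (0.0536%) at an FDR below 0.05, whereas 2219 genes (14.9%) had an unadjusted p under 0.05, so a low number of calls does not show that few differences changed. For all 8 the anterior pituitary was lower relative to the arcuate nucleus on the low plane than on the high plane, by 1.11 to 2.54 on the log2 scale. Their mean levels were low to moderate, from 0.61 to 87.3 CPM in the anterior pituitary. With the 7 libraries left out 30 genes were called, 6 of the 8 among them, and 24 of the 30 had that direction and 6 the opposite one. DESeq2 called 60, of which 47 had that direction and 13 the opposite one.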

How the data were processed

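The authors deposited, for each library, whole-number counts of single-end reads on each Ensembl gene, without normalization. The submitters' processing notes name CASAVA 1.4, STAR, HTSeq and edgeR. The genome build, annotation release and strand setting are not given in the sources used here, so how reads on overlapping or antisense genes were assigned is not known. The authors left out 1 anterior pituitary library for few reads. Samples were grouped by their tissue and diet labels, and testes libraries were not used here.

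Each of the 39 files lists 24616 genes, of which 2699 had 0 reads throughout. Genes passing edgeR's filterByExpr by tissue were scaled by TMM and tested with edgeR 4.0.16 (R 4.3.3; glmQLFit and glmQLFTest, tissue and diet terms, Benjamini-Hochberg adjustment). DESeq2 1.42.0 and limma 3.58.1 were alternatives. SE came from the log2 difference and its test statistic. The common biological coefficient of variation was 0.48 (0.24 without the 7 libraries that stood apart). Values per library were compared by 2-sided permutation tests with 100000 resamples, or exact ones where a group held fewer than 10 libraries (scipy 1.17.1). Gene numbers at a common depth are expectations under sampling without replacement. Libraries stood apart where the median correlation with their own tissue was below 0.85. No 2 libraries of a group agreed within sampling noise, as the chi-square of their counts was at least 2.77 times its degrees of freedom. Counts were simulated with the library sizes, mean levels and dispersions of this comparison (14930 genes). On these the test recovered 80% of 100 genes changed by 1 on the log2 scale and 97% of 100 changed by 2. Of its calls, 5.85% were false. The simulation had few changed genes, balanced in direction, and no shift shared by libraries. It therefore does not test the scaling or give the rate of false calls in the real data. The labels do not name the calf of a library, and p-values measure the spread between these libraries.

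The genes named follow a rule, namely the 10 most counted of each tissue, the 15 largest differences in each direction (FDR below 0.05, no overlap, at least 10 CPM in the higher tissue) and the 10 nearest to equality at 100 CPM or more in both. Identifiers are printed for 2 genes in each direction. The third arcuate example, the eleventh most counted gene, was chosen after its values were seen. The gene lists and tissue markers that had been planned (by symbol) were not applied, as no identifier matched a symbol. The comparison, members and lists were chosen with earlier results of these data known.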

Additional observations from a re-analysis of the deposited data

Results flagged for a closer look

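Within groups of 9 or 10 libraries, single libraries lay far from the nearest other one in 13 of 64 group values searched. For independent values chance alone gives about 1 in 20, that is 3.2. The 64 values overlap in libraries and reads, so 13 against 3.2 is no test. In the low plane anterior pituitary, A47 (1 of the 7 libraries that stood apart) had 14.78% of its reads in its 10 most counted genes (next 26.38%), 29.8% in the genes strongly higher in the anterior pituitary (next 40.13%) and 12.58% in those strongly higher in the arcuate nucleus (next 10.04%). Its log2(CPM + 1) of ENSBTAG00000015274 was 14.94 (next 16.45).

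In the low plane arcuate nucleus, C6 (also 1 of the 7) had 15693 genes with a read (next 17116), 11695 genes at 1 CPM or more (next 13143) and 12350 genes at the common depth (next 13653). Library C41 had a total of 27729419 reads (next 16556829), and C8 had 7.73% of its reads in the genes strongly higher in the anterior pituitary (next 6.23%).

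In the high plane arcuate nucleus, the shallow library C22 had 14809 genes with a read (next 17506) and a log2(CPM + 1) of ENSBTAG00000015274 of 1.69 (next 4.91). Library C44 had 15340 genes at the common depth (next 14815) and 7.27% of its reads in the genes strongly higher in the anterior pituitary (next 5.75%).

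The tissue difference itself differed with diet for 8 genes by a test of the interaction.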

How the results depend on the processing

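The direction of the tissue difference in the share of reads of the 10 most counted genes and in genes detected was the same under every alternative listed here but 1, though not in genes detected among the 7 libraries alone. The 4 genes with printed identifiers kept their direction and passed the test under all 52 alternatives each. They were picked for the largest differences, so this outcome was near certain. Of the alternatives, 39 left out 1 library each, and the omission of C22 was counted again under its own name. Counts of genes higher or strongly higher stayed within 1.5 times the reported count under all but 2 alternatives. With no filter on low counts (21917 genes tested) 3345 genes were strongly higher in the anterior pituitary, more genes having been tested, and with a null of 1 on the log2 scale 1286 were. Leaving out each library in turn gave 4950 to 5328 genes higher in the anterior pituitary, 4879 to 5183 higher in the arcuate nucleus, and 2029 to 2144 and 3077 to 3219 strongly higher. The scalings that turned the order of the strongly higher genes are given with those counts. The number of genes whose tissue difference differed with diet was 60 by DESeq2 and 30 without the 7 libraries that stood apart, against 8; the cause was not tested.

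The difference in the share of the 10 most counted genes reversed, to -1.116 percentage points (p = 0.0917, permutation), where the 2 most counted genes of each library were taken out first and the next 10 counted. The difference in genes detected, -646 at the common depth, did not pass the permutation test as deposited (-328.9), on the low plane alone (-375.6) and outside the 17 most counted genes (-320.4); the cause was not tested. On the low plane without the 7 libraries, which include C6 and C33, it was -548.4 and passed. No paired analysis was possible because the labels do not tie libraries of the tissues to calves and the library numbers are not shared between them. Depth limits the scarce genes most in library C22, and without it the difference in genes as deposited passed the test (-475.2 genes, p = 0.029, permutation).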
